A study of Mus musculus with 4 samples.

Results

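The DnaJ (Hsp40) co-chaperones were described in RNA from laser-captured spinal motor neurons of mice carrying human SOD1 fused to YFP. Members were chosen by gene symbol alone, as every entry of the deposited tables whose symbol begins with Dnaja, Dnajb or Dnajc followed by a number. This gave 40 of the 27189 entries, which carry 38 symbols, with 4 entries in subfamily A, 14 in subfamily B and 22 in subfamily C. The 2 wild-type libraries came from strain 592 (SOD1 YFP) and the 2 G85R libraries from strain 737 (SOD1 G85R YFP), each library from 1 mouse of 3 months on a C57BL/6J x SJL/J background. Both strains carry a genomic fragment of human SOD1 whose last exon was joined to the YFP gene, and no mice without a transgene were among these samples. The mutant strain is homozygous for an insertion of many transgene copies on chromosome 4, while the wild-type strain has far fewer copies, so that genotype, strain, insertion site and copy number cannot be told apart. Large cell bodies of the ventral horn were taken, and those with bright aggregates of G85R SOD1-YFP were left out of the capture.

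DnaJ proteins are the partners that direct Hsp70 chaperones to their work. They carry a J domain, nearly always with a His-Pro-Asp motif, which stimulates Hsp70 to hydrolyze ATP and so to clamp onto an unfolded client protein. Subfamily A keeps the zinc-finger and Gly/Phe-rich parts of bacterial DnaJ, subfamily B lacks the zinc finger, and subfamily C shares with them only the J domain, which sits in otherwise unrelated proteins at mitochondria, synaptic vesicles, the endoplasmic reticulum or the spliceosome. Hsc70, the constitutive Hsp70, and its cytosolic partners are known to bind misfolded SOD1.

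The codons of the J-domain motif are shown for 8 members to which the results below refer. In each line the 9 bases in capitals are the in-frame codons for His, Pro and Asp, with 9 bases before and 12 after, read from the coding strand of GENCODE M1 transcripts on NCBIM37 (mm9).
Dnaja1: ttgaagtacCACCCTGATaagaatccaaat
Dnaja4: ctcaagtacCACCCGGACaagaacccggat
Dnajb1: ctgcgctacCACCCGGACaagaacaaggag
Dnajb4: ctcaaatttCACCCGGACaagaacaaatct
Dnajb11: ctgcagctcCACCCTGACcggaaccctgat
Dnajc3a: ctgcagtggCATCCAGATaatttccagaat
Dnajc5: ctgaagtatCACCCTGACaagaaccctgat
Dnajc12: ctggagtgtCACCCCGACaagcatcctgag
The Dnaja1 codons lie in exon 2 of 9, at chr4:40670836-40670865 on the plus strand. Those of Dnaja4 are in exon 2 of 8, at chr9:54547626-54547655 on the plus strand, and those of Dnajb1 in exon 1 of 3, at chr8:86132315-86132344 on the plus strand. Those of Dnajb4 are in exon 2 of 4, at chr3:151856438-151856467 on the minus strand, and those of Dnajb11 in exon 2 of 11, at chr16:22862694-22862723 on the plus strand. The Dnajc3a window is in exon 11 of 12, at chr14:119375978-119376007 on the plus strand, the Dnajc5 window in exon 4 of 6, at chr2:181282055-181282084 on the plus strand, and the Dnajc12 window in exon 2 of 5, at chr10:62858569-62858598 on the plus strand.

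A coding sequence was found for all 38 symbols, and 37 of them held the 3 codons in frame. The exception was Dnajb13, a testis-type member. Of the 21637 protein-coding genes scanned in the same way, 5.5% held them somewhere in frame. The motif began at codon 34 to 121 in subfamily A (median 35) and at codon 31 to 139 in subfamily B (median 32), and thus near the amino terminus. In subfamily C its position ran from codon 39 to codon 1337, the latter in Dnajc13. A lysine codon directly followed the motif in 31 of the 37 members, among the 8 shown in all but Dnajb11 and Dnajc3a.

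The level of a member is given as RPKM, reads scaled by transcript length and by the uniquely mapped reads of the library. This is a level per length and can be compared between genes whose reads map to a single place. For members with near-identical copies in the genome, among them Dnaja1 and Dnajb6, the level and the place in an order or sum are uncertain, as given further on. With 1 read worth a median RPKM of 0.0195 to 0.0226 in the 4 libraries, members whose mean RPKM reached 1 rested on an estimated 34 to 7696 reads in a library. These were 34 of the 40 entries, with a median RPKM of 18.0, beside 10.1 over all 11530 genes above the same minimum. Their means ran from 1.01 for Dnajc1 to 141 for Dnajc7, with 2 members above 100, 22 between 10 and 100 and 10 under 10. When the 36 entries above 0 were put in order of their means, 29 of the 35 neighboring pairs had ranges over the 4 libraries that met, so that most neighbors in the order did not differ beyond their spread. RNA of other cells was also present, as described with the results below, and in such bulk samples fewer cells of a type and less RNA per cell cannot be told apart.

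**Figure D1:**
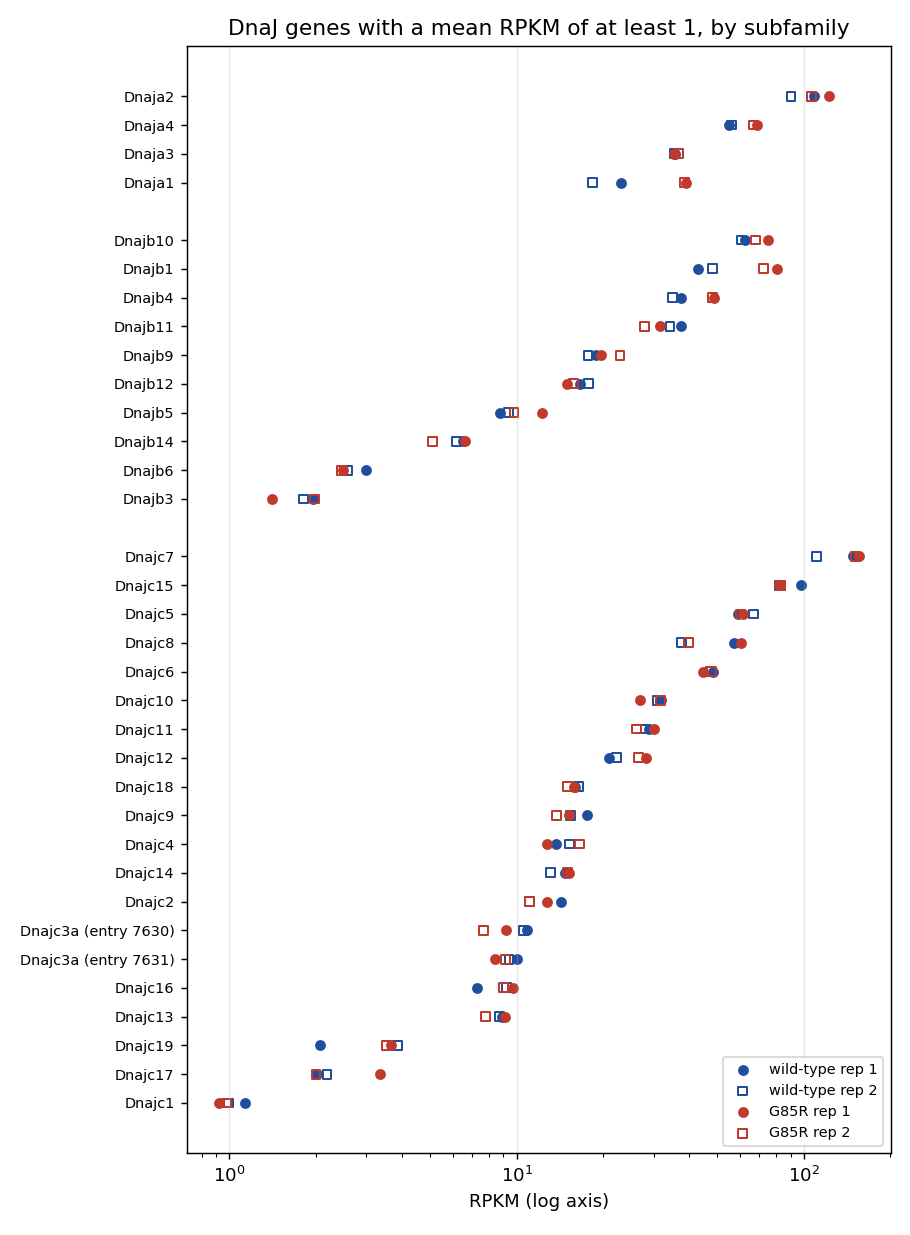
RPKM of the 34 DnaJ entries with a mean of at least 1, on a log axis, grouped by subfamily A, B and C from top to bottom. Each row is 1 entry and each symbol 1 library, blue for wild-type and red for G85R, filled for replicate 1 and open for replicate 2. Dnaja1 and Dnajb1 show the widest gap between blue and red, and in 16 of the 34 rows the colors overlap.

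Subfamily A was the smallest, and all 4 of its members were well expressed. Dnaja2, a constitutive cytosolic co-chaperone of Hsc70, was listed at an RPKM of 109 and 90.3 (wild-type) against 123 and 106 (G85R). Dnaja3, which works in mitochondria with the Hsp70 of that organelle, had 35.5 and 35.3 (wild-type) against 35.4 and 36.7 (G85R). In both genes the genotypes overlapped. In wild-type neurons Dnaja1 was listed as the lowest of the 4, and in G85R neurons slightly above Dnaja3. Its copies in the genome make this place in the order uncertain, as given further on.

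In subfamily B the highest level was that of Dnajb10, which RefSeq names Dnajb2, a neuronal co-chaperone that binds ubiquitinated clients. It was listed at an RPKM of 62.3 and 60.8 (wild-type) against 75.3 and 67.9 (G85R), with no overlap and a log2 fold change of 0.21 (95% interval -0.03 to 0.46, adjusted p = 0.515 from limma). Dnajb5 followed the same pattern at a lower level, at 8.78 and 9.37 (wild-type) against 12.3 and 9.80 (G85R). Dnajb12 and Dnajb14, which face the cytosol from the membrane of the endoplasmic reticulum, had means of 16.3 and 6.09. Dnajb6, a suppressor of protein aggregation, was listed at only 2.45 to 2.99, a value that its copies in the genome make uncertain, as given further on. Dnajb3 had a mean of 1.79. Dnajb13 had an estimated 0 to 2 reads in a library, and Dnajb7 and both entries of Dnajb8, which are known from testis, were listed at 0 in all 4 libraries.

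Subfamily C held the highest level of the family. Dnajc7, which carries tetratricopeptide repeats and passes clients between Hsp70 and Hsp90, was listed at an RPKM of 148 and 111 (wild-type) against 155 and 151 (G85R). The wild-type libraries differed from each other more than either G85R library did from wild-type replicate 1, and the log2 fold change was 0.26 (95% interval -0.09 to 0.60, adjusted p = 0.589 from limma). Next came Dnajc15 of the mitochondrial inner membrane, at 98.0 and 82.3 (wild-type) against 82.1 and 83.3 (G85R). Dnajc5, the cysteine string protein of synaptic vesicles, had 59.1 and 66.7 (wild-type) against 61.5 and 60.3 (G85R). Dnajc6, the neuronal auxilin that strips clathrin from vesicles, had 48.4 and 47.2 (wild-type) against 44.6 and 47.7 (G85R). These 3 genes overlapped between the genotypes. The fourth in order, the splicing factor Dnajc8, split by replicate number rather than by genotype, at 57.1 and 37.5 (wild-type) against 60.7 and 39.7 (G85R). At the other end, Dnajc5b had an estimated 2 reads in wild-type replicate 2 and none elsewhere, and Dnajc5g was listed at 0 in all 4 libraries.

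Summed over its entries, subfamily A was listed at an RPKM of 222 and 200 (wild-type) against 266 and 248 (G85R). Subfamily B had 236 and 233 (wild-type) against 294 and 274 (G85R). Neither sum overlapped between the genotypes. The sum of subfamily C, at 611 and 542 (wild-type) against 605 and 578 (G85R), overlapped. The share of subfamily C in the RNA of the family was thus 57.2% and 55.6% (wild-type) against 52.0% and 52.5% (G85R). These sums are given as a description, with no test, and members with low levels weigh little in them. Dnaja1, Dnaja4, Dnajb1 and Dnajb4, described below, together had 158 and 157 (wild-type) against 238 and 226 (G85R). The gaps of subfamilies A and B include those of these 4 genes, of which Dnaja1 has an uncertain level. Of the 10 members of subfamily B with a mean RPKM of at least 1, 5 had a higher and 5 a lower mean in G85R. The median log2 fold change was 0.25 in subfamily A, 0.04 in B and -0.05 in C, beside -0.02 over all genes above that minimum.

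To ask which members differed between G85R and wild-type motor neurons, limma was fitted to log2(RPKM + 0.1) of all 11530 genes whose mean RPKM reached 1, and p-values were adjusted over all of them. On this scale the change of weakly expressed genes is understated. Of the 34 DnaJ entries tested, 2 had an adjusted p under 0.05, Dnaja1 and Dnajb1, both higher in G85R, while 0.642% of all tested genes were called, 0.269% with a higher and 0.373% with a lower level in G85R. At an unadjusted p under 0.05 there were 6 members (17.6%), beside 11.0% of all tested genes. They were 5 with a higher level in G85R and 1 with a lower level, where the shares of all tested genes were 4.66% and 6.37%. Both G85R values lay outside both wild-type values for 18 members (52.9%), compared with 41.2% of all tested genes, and above them for 10, compared with 17.3%. Of the 34 members 17 had a higher mean in G85R, compared with 45.3% of all tested genes, and the median log2 fold change was -0.01, near the -0.02 of all tested genes. A two-sided exact permutation test of 1 gene has a smallest possible p of 0.333 at this sample number, and these calls therefore rest on the variance that limma shares between genes.

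**Figure D2:**
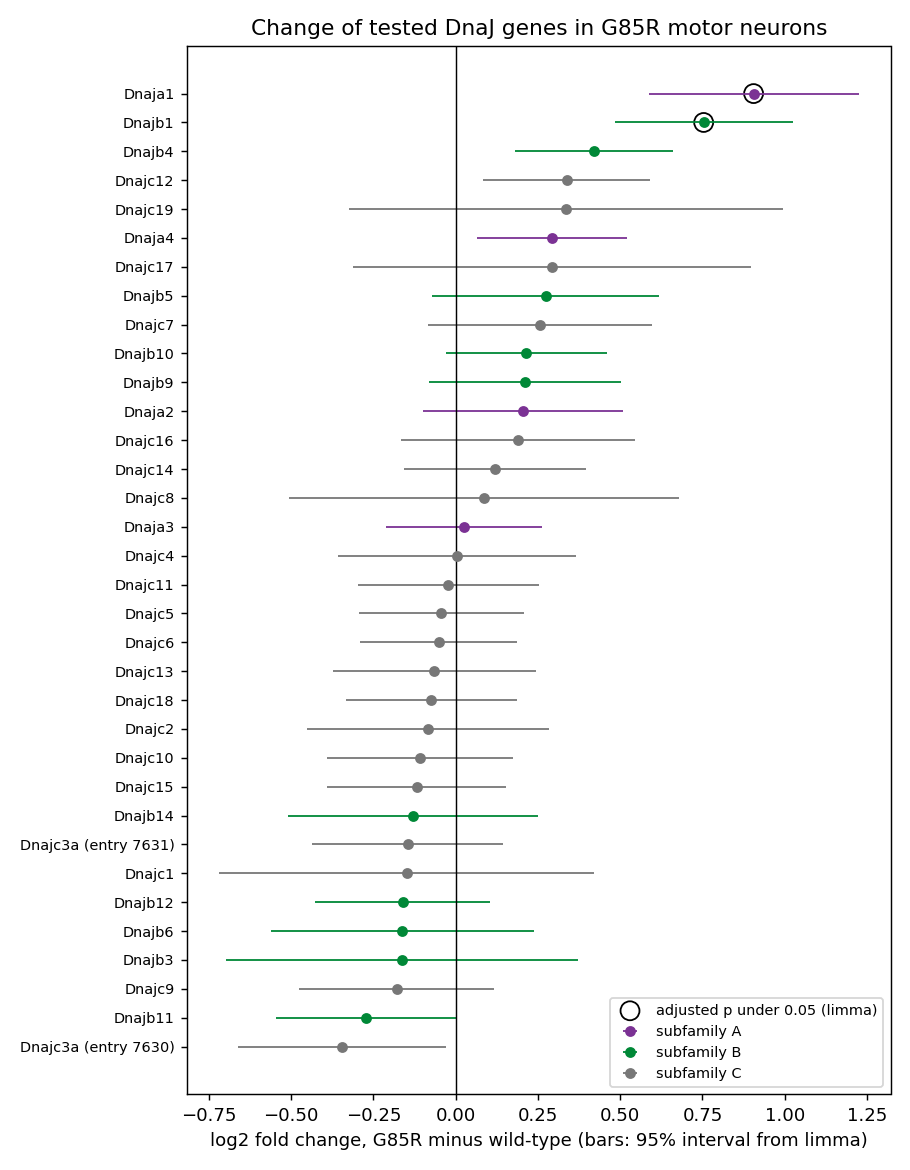
Log2 fold change (G85R minus wild-type) of the 34 tested DnaJ entries, in order of size, with 95% intervals from limma as bars and the subfamily as color. Circles mark Dnaja1 and Dnajb1, the 2 entries with an adjusted p under 0.05, and the other entries lie between -0.35 and 0.42.

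Dnajb1, the classical heat-induced Hsp40, was listed at an RPKM of 42.8 and 48.0 (wild-type) against 81.0 and 72.3 (G85R). Both G85R values stood far above both wild-type values, from an estimated 2209 and 2634 reads (wild-type) against 3816 and 3621 (G85R). The means were 45.4 ± 3.70 and 76.6 ± 6.11 (SD, n = 2 libraries each), which gave a 1.69-fold difference. On the log2 scale limma put it at 0.75 (standard error 0.11, 95% interval 0.48 to 1.02) with an adjusted p of 0.0489. Dnajb1 lies at chr8:86132074-86135801 on the plus strand, and no copy of its coding sequence was found elsewhere in the genome. In the log-linear likelihood ratio test, a Poisson model of rounded RPKM adjusted over all 27189 genes, Dnajb1 was the only member with an adjusted p under 0.05 (0.0308), where 0.228% of all genes were called, and it was among 3 members with an unadjusted p under 0.05, where the share of all genes was 1.29%.

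Dnaja1, a farnesylated cytosolic co-chaperone of Hsc70 that heat also induces, was listed at an RPKM of 23.1 and 18.4 (wild-type) against 39.0 and 38.4 (G85R). The G85R libraries were close to each other and both were above wild-type, from an estimated 2246 and 1896 reads (wild-type) against 3460 and 3618 (G85R). The means were 20.7 ± 3.36 and 38.7 ± 0.427 (SD, n = 2 libraries each), a 1.87-fold difference. On the log2 scale this was 0.91 in limma (standard error 0.13, 95% interval 0.59 to 1.22) with an adjusted p of 0.0480. The adjusted p of Dnaja1 in the log-linear test was 0.247.

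Both calls lie close to the threshold. Without G85R replicate 1 neither gene had an adjusted p under 0.05 (0.0579 for Dnaja1 and 0.114 for Dnajb1), although the log2 fold changes were 0.89 and 0.67. Dnaja1 also lost its call without wild-type replicate 2 (log2 fold change 0.74, adjusted p = 0.0650), and Dnajb1 without wild-type replicate 1 (0.67, adjusted p = 0.0805), all from limma. Over the 15 alternative settings the adjusted p from limma ran from 0.000719 to 0.474 for Dnaja1 and from 0.00152 to 0.429 for Dnajb1, while the change itself stayed between 1.67-fold and 2.10-fold for Dnaja1 and between 1.59-fold and 1.79-fold for Dnajb1.

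Dnajb4 and Dnaja4 made up, with Dnaja1 and Dnajb1, a list of cytosolic members known to be induced by heat. Dnajb4 and Dnaja4 were also higher in both G85R libraries than in both wild-type libraries but did not pass the adjusted threshold. Dnajb4 was listed at an RPKM of 37.4 and 34.9 (wild-type) against 48.8 and 48.0 (G85R), a log2 fold change of 0.42 (95% interval 0.18 to 0.66, adjusted p = 0.175 from limma). Dnaja4 had 54.9 and 56.0 (wild-type) against 68.9 and 67.0 (G85R), a log2 fold change of 0.29 (95% interval 0.07 to 0.52, adjusted p = 0.328 from limma). In all 4 members of this heat-inducible list both G85R values lay above wild-type, beside 17.3% of all tested genes. The median log2 fold change of the list was 0.59. Their summed RPKM was 158 and 157 (wild-type) against 238 and 226 (G85R). For the other 30 tested entries, the median was -0.05, with single members from -0.35 to 0.34, and 13 of them were higher in G85R. The list was drawn up with earlier results of these data known and need not hold every member that heat induces.

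The members induced by the unfolded protein response of the endoplasmic reticulum did not move together. Dnajb9, which binds the Hsp70 of this compartment and helps to clear misfolded proteins, was listed at an RPKM of 18.9 and 17.7 (wild-type) against 19.6 and 22.9 (G85R). Dnajb11, a soluble co-chaperone for newly made secretory proteins, had 37.5 and 34.2 (wild-type) against 31.5 and 27.9 (G85R), a log2 fold change of -0.27 (95% interval -0.55 to 0.00, adjusted p = 0.454 from limma). Dnajc10, a disulfide reductase, overlapped between the genotypes, at 31.9 and 30.9 (wild-type) against 26.9 and 31.7 (G85R). Dnajc3a, which RefSeq names Dnajc3 and which carries tetratricopeptide repeats, had 2 entries in the files. The higher entry had 10.8 and 10.5 (wild-type) against 9.17 and 7.69 (G85R), a log2 fold change of -0.35 (95% interval -0.66 to -0.03, adjusted p = 0.417 from limma). The lower entry had 10.0 and 9.41 (wild-type) against 8.39 and 9.16 (G85R), a log2 fold change of -0.15. Of these 5 entries 1 had a higher mean in G85R, beside 45.3% of all tested genes. Both G85R values lay below wild-type for 3, beside 23.9% of all tested genes. None passed the adjusted threshold with limma, and 1, the higher entry of Dnajc3a, had an unadjusted p under 0.05, beside 11.0% of all tested genes.

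**Figure D3:**
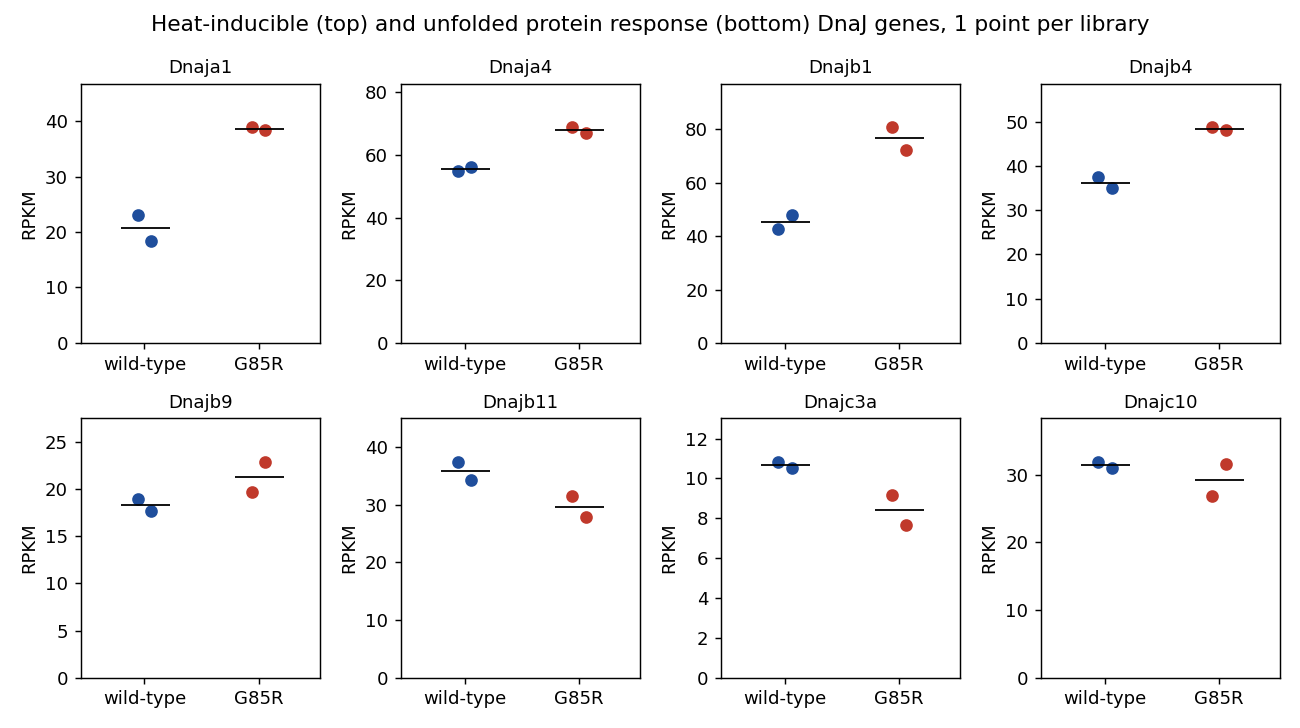
RPKM of the heat-inducible members Dnaja1, Dnaja4, Dnajb1 and Dnajb4 (top row) and of the unfolded protein response members Dnajb9, Dnajb11, Dnajc3a and Dnajc10 (bottom row), 1 point per library, with lines at the mean of each genotype and axes from 0. All 4 top panels have both red G85R points above both blue wild-type points, as has Dnajb9 below, while Dnajb11 and Dnajc3a have them below.

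Grouped by the place of the protein, 6 of 8 tested cytosolic and nuclear members of classes A and B had both G85R values above wild-type, beside 17.3% of all tested genes, with a median log2 fold change of 0.28. These 6 were the 4 heat-inducible members given above, Dnajb10 and Dnajb5, so that the count in large part repeats that of the heat-inducible list. The exceptions were Dnaja2, which overlapped, and Dnajb6, which was lower in both G85R libraries. Among 11 tested entries of the endoplasmic reticulum, 8 had a lower mean in G85R, with a median of -0.13. Both G85R values lay below wild-type for 6, beside 23.9% of all tested genes. These 6 include both entries of Dnajc3a, which are 1 gene, and Dnajb11. Those 3 entries were already counted in the unfolded protein response list, so that the 2 counts are not separate. The 5 mitochondrial members, Dnaja3, Dnajc4, Dnajc11, Dnajc15 and Dnajc19, had log2 fold changes from -0.12 to 0.34, and all of them overlapped between the genotypes. So did the 3 vesicle members above the minimum, Dnajc5, Dnajc6 and Dnajc13, an endosomal protein, which had changes from -0.06 to -0.04. Members of the spliceosome, histone and ribosome machinery (Dnajc2, Dnajc8, Dnajc9 and Dnajc17) ran from -0.18 to 0.29. None of the members outside the cytosolic group was called with limma, and 2 of these 26 entries, Dnajc12 and the higher entry of Dnajc3a, had an unadjusted p under 0.05, a share no higher than the 11.0% of all tested genes.

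**Figure D4:**
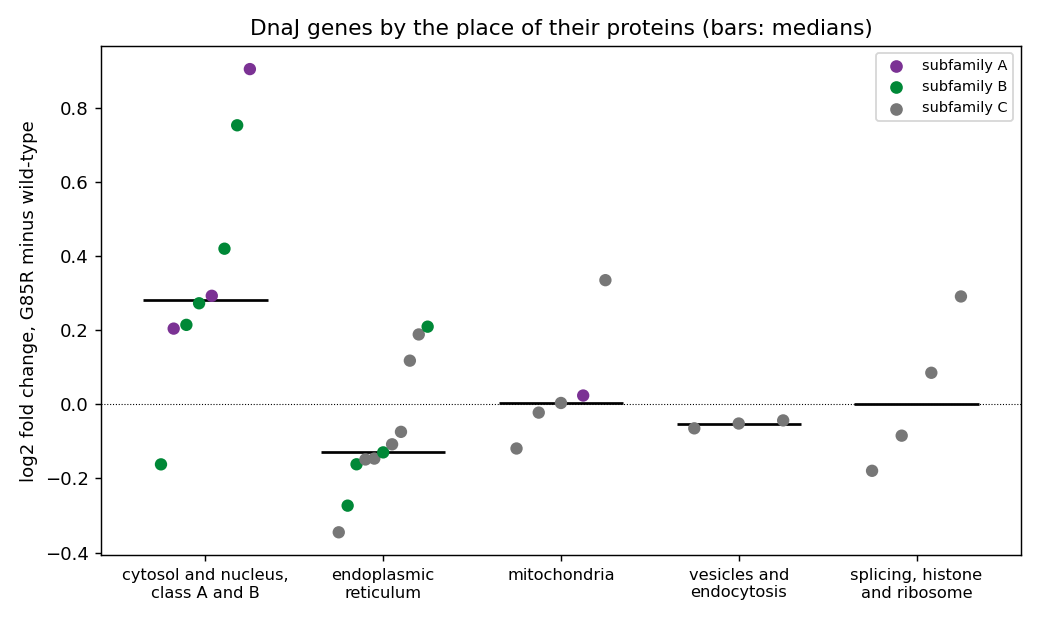
Log2 fold change (G85R minus wild-type) of tested DnaJ entries by the place of their proteins, 1 point per entry, colored by subfamily, with a bar at the median of each place. The cytosolic and nuclear members of classes A and B have a median of 0.28 and include the 4 heat-inducible members. Those of the endoplasmic reticulum have a median of -0.13.

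Dnajc12, a cytosolic protein that binds the aromatic amino acid hydroxylases and belongs to none of these groups, was listed at an RPKM of 21.0 and 22.2 (wild-type) against 28.2 and 26.5 (G85R). The genotypes did not overlap, and the log2 fold change was 0.34 (95% interval 0.08 to 0.59, adjusted p = 0.314 from limma). Over all tested members the standard error of a log2 fold change had a median of 0.12 and the 95% interval a median half-width of 0.29, with standard errors from 0.096 to 0.28 for single members.

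Mouse genomes carry retrocopies of several DnaJ genes, which bear on how many reads map to a single place. With the coding sequences aligned to NCBIM37, 7 of the 38 members had at least 1 other locus with 250 bases or more at 90% identity or more. Dnaja1 had 4, among them full-length copies at chr7:148076786-148077979 (99.4% identity), chr5:40189453-40190646 (99.3%) and chrX:109276163-109277356 (97.1%). Of its coding stretches of 75 bases, the read length, 82.1% occurred exactly at another locus and all within 2 mismatches, so that its RPKM is uncertain and reads of the gene and its copies may not be separated. Dnajb6 had 7 copies and 89.4% of such stretches elsewhere. Within 2 mismatches its share was 95.9%. With 1 copy each, the exact share was 27.0% for Dnajc19, 10.9% for Dnajb9, 9.9% for Dnajc17, 6.25% for Dnajc8 and 5.3% for Dnajc2. Within 2 mismatches it was 51.7% for Dnajc19, 63.2% for Dnajb9, 63.2% for Dnajc17, 65.4% for Dnajc8 and 38.6% for Dnajc2, so that the RPKM of these genes is also uncertain. Without a copy of that length, Dnajc5b had 27.0% and Dnajc9 7.65% of exact stretches elsewhere. No such stretch was found elsewhere for Dnajb1, Dnajb4, Dnaja4, Dnajb11, Dnajc3a or Dnajc12.

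Dnaja1 lies on chromosome 4 (chr4:40669183-40684182, plus strand), the chromosome with the G85R insertion, whose position on it is not given in the sources used here. The other 5 tested members on this chromosome were Dnajb5 (log2 fold change 0.27), Dnajc16 (0.19), Dnajc8 (0.09), Dnajc11 (-0.02) and Dnajc6 (-0.05). Of these only Dnajb5 had no overlap between the genotypes. A part of the insertion in the level of Dnaja1 was not tested, and Dnajb1, Dnajb4, Dnaja4 and Dnajc12 lie on chromosomes 8, 3, 9 and 10.

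Promoter sequences of RefSeq, 250 bases before to 50 after each start, were matched by symbol for 32 of the 38 members and placed on NCBIM37. They were searched on both strands for the heat shock element, here GAANNTTC followed by NN and GAA, and for the endoplasmic reticulum stress element, here CCAAT and CCACG with 9 bases of any kind between them. The former was found in 1 member, Dnajb6, and in 0.662% of all 27025 genes with a promoter. The latter was found in 1 member, Dnajc3a, and in 0.137% of all genes. The first 8 letters of the heat shock element alone, GAANNTTC, a search added after the data were seen, was found in 4 members, Dnaja1, Dnaja4, Dnajb6 and Dnajc5g, and in 9.04% of all genes. The sites in Dnaja1, the called member with one, in the other heat-inducible member with one, Dnaja4, and in the only members with a full element, Dnajb6 and Dnajc3a, are shown with the matched letters in capitals.
Dnaja1: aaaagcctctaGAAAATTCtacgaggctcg
Dnaja4, first site: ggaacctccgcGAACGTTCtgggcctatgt
Dnaja4, second site: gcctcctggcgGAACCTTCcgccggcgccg
Dnajb6: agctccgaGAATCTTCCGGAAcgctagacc
Dnajc3a: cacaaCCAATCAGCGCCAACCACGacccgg
The Dnaja1 window lies at chr4:40669366-40669395, those of Dnaja4 at chr9:54547265-54547294 and chr9:54547303-54547332, that of Dnajb6 at chr5:30062384-30062413 and that of Dnajc3a at chr14:119337044-119337073, all on the plus strand. The matches begin 124 bases (Dnaja1), 90 and 52 bases (Dnaja4) and 105 bases (Dnajc3a) before the RefSeq start of the promoter that holds them, and 127 or 46 bases before 2 RefSeq starts of Dnajb6. A gene can have several such starts, and those of Dnaja1, Dnaja4 and Dnajb6 lie inside the gene as GENCODE M1 bounds it. Neither form was found in the promoter windows of Dnajb1 and Dnajb4. These matches describe letters in a short window and not bound sites.

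Tested entries of Hsp70 proteins and their nucleotide exchange factors and adaptors, the partners of DnaJ proteins, numbered 27. Of these 1 (3.7%) was called, beside 0.642% of all tested genes, and it was higher in G85R. This was Hspa1b, a stress-induced Hsp70, at 0.986 and 1.29 (wild-type) against 4.40 and 4.44 (G85R), a log2 fold change of 1.88 (adjusted p = 0.0128 from limma). It has a near-identical neighbor, Hspa1a, at 1.94 and 2.12 (wild-type) against 4.20 and 3.97 (G85R), between which reads can be divided. Hsp110, which recharges Hsp70 with ATP, had a log2 fold change of 0.57 (adjusted p = 0.0899 from limma). Hspa2 and Bag2 had both G85R values above wild-type, with changes of 0.51 and 0.39 and an adjusted p of 0.307 each from limma. The constitutive Hspa8 cannot be read from these files, with 0.837, 0.709 and 1.73 in 3 libraries and 82.9 in G85R replicate 2. Among the 5 highest partners, Stip1, Hsp110, Hspa5, Stub1 and Bag1, only Hsp110 had an unadjusted p under 0.05. At an unadjusted p under 0.05 from limma there were 6 of the 27 (22.2%), among them the unreadable Hspa8, beside 11.0% of all tested genes. The median of all 27 was 0.05, with 18 (66.7%) higher in G85R, beside 45.3% of all tested genes.

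Markers of other cells were present beside those of motor neurons. The 7 motor neuron markers summed to an RPKM of 2455 and 2710 (wild-type) against 2194 and 2558 (G85R). Of the 7, 6 had a lower mean in G85R, where 45.3% of all tested genes had a higher one. The 6 oligodendrocyte markers summed to 807 to 860 in wild-type and 786 to 1027 in G85R, with 0 called by limma and 0 at an unadjusted p under 0.05. The 6 astrocyte markers summed to 33.8 and 37.1 in wild-type and to 124 and 49.0 in G85R replicates 1 and 2, and the 8 microglial markers to 15.3 and 17.2 in wild-type and to 38.8 and 18.6 in G85R, so that both were highest in G85R replicate 1, with 0 of the 12 tested genes called by limma. At an unadjusted p under 0.05 there were 1 astrocyte and 3 microglial markers, beside 11.0% of all tested genes. A higher mean in G85R was found for 5 of 6 tested astrocyte and 6 of 6 tested microglial markers, beside 45.3% of all tested genes. In G85R replicates 1 and 2 the RPKM was 39.0 and 38.4 for Dnaja1 and 81.0 and 72.3 for Dnajb1. It was 48.8 and 48.0 for Dnajb4 and 68.9 and 67.0 for Dnaja4, and all 4 were higher in replicate 1. Log2 fold changes without G85R replicate 1 were 0.89 for Dnaja1 and 0.67 for Dnajb1, beside 0.91 and 0.75 with all 4 libraries. Red blood cell genes summed to 2.31 and 2.72 (wild-type) against 13.5 and 12.7 (G85R), with both tested entries, of Hbb-b1, called and Hba-a2 at 0 in all 4 libraries in 1 of its entries. The 5 endothelial markers summed to 8.58 to 9.54 in the wild-type libraries and 7.18 to 7.38 in the G85R libraries. Apart from that Hba-a2 entry, no marker on these lists was at 0 throughout. The part of these cells in the levels of DnaJ genes was not tested.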

How the data were processed

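Single-end reads were mapped by the authors to mm9 and to splice junctions with Bowtie 0.12.3, and Cufflinks gave the level of each UCSC gene cluster. The authors deposited RPKM per library, also with 1 read added to every gene, and subtracting the former from the latter leaves the RPKM of a single read. RPKM over that value gave estimated reads, which need not be whole, so that counting error was not computed. Genotypes were compared, 2 libraries against 2 with no block, with limma 3.58.1 in R 4.3.3 (trended eBayes) on log2(RPKM + 0.1) where the mean RPKM of a gene reached 1, with Benjamini-Hochberg adjustment and a threshold of 0.05. The log-linear test that the study names was an alternative, since a Poisson model of RPKM depends on the unit. The fit was tested on simulated data. Members with the highest level in each subfamily, an unadjusted p under 0.05, a log2 fold change over 0.5 or a place in the heat-inducible or unfolded protein response list are named with values, as are the 2 highest of the mitochondrial and vesicle lists. Other members are given by range. Both entries of Dnajc3a were tested, counted and given, and the higher one was used in the alternatives and in the plot of single genes. The members, lists and tests were chosen with earlier results of these data known. Alternatives covered the pseudocount, value column, filter, scaling, block, moderation, test, threshold and left-out libraries. Symbols were matched to RefSeq names of GRCm38.p6, used for names only, by Entrez identifier for 36 of 40 entries. Protein features other than the codons of the J-domain motif were not analysed here. Copies of coding sequences were searched with BLAST 2.17.0, a step added after the data were seen.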

Additional observations from a re-analysis of the deposited data

How the results depend on the processing

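Dnaja1 and Dnajb1 were both called in the fits with a pseudocount of 1, with 1 read added, with a minimum mean RPKM of 0.1, after median ratio rescaling, with robust eBayes and without G85R replicate 2. With a pseudocount of 0.01 and in the log-linear test 1 member was called, and with a minimum mean RPKM of 5, without a filter, after quantile normalization and with eBayes without trend 0 members were called, while 7, 5, 6 and 6 members had an unadjusted p under 0.05. Leaving out 1 library gave 0 to 2 called members (0 without G85R replicate 1, where 4 had an unadjusted p under 0.05), with the lone library of a genotype assumed to vary like the others. At an unadjusted p under 0.05 there were 3 members in the log-linear test, where the share of all genes was 1.29%. For the alternative limma settings the share of all genes at an unadjusted p was not computed. Their counts at an unadjusted p are therefore given without a background. For all genes the number called was 142 at an adjusted p under 0.1, 49 with eBayes without trend, 17 with a minimum mean RPKM of 5, 112 without a filter, 39 after quantile normalization and 78 to 188 with 1 library left out (188 without G85R replicate 2), beside 74. The Hsp70 partners called numbered 3 at an adjusted p under 0.1, 2 in the log-linear test, 0 with a minimum mean RPKM of 5 or without a filter (4 at an unadjusted p under 0.05 in each), 2 with robust eBayes and 1 to 2 with 1 library left out (2 without G85R replicate 1). The median log2 fold change of subfamily B was 0.21 with a minimum mean RPKM of 5 and 0.00 without a filter, where unmeasured members enter at 0, and 0.025 to 0.091 with 1 library left out. The latter settings gave -0.0096 to 0.050 for all members and -0.074 to -0.0067 for subfamily C. Left-out libraries turned the sign of 5 small changes, with ranges of -0.0016 to 0.050 for Dnaja3, -0.23 to 0.0099 for Dnajc10, -0.24 to 0.0065 for Dnajc15, -0.13 to 0.043 for Dnajc5 and -0.22 to 0.39 for Dnajc8. The causes of these shifts were not tested.

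Replicate numbers are shared between the genotypes, but no source says what they mark. Deviations of libraries with the same number had a correlation of 0.22 over 11530 genes. With the replicate number as a block, 527 of the 11530 genes were called, beside 74 without it. Calls thus rose for genes in general, and not for DnaJ members alone. The called genes included 3 members, Dnajb4 (adjusted p = 0.0209 from limma) beside Dnaja1 and Dnajb1, and 5 Hsp70 partners. An unadjusted p under 0.05 was found for 10 members, and the share of all genes was not computed at this setting.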

Other observations

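J-domain proteins are also listed under other symbols, which a list of 10 entries covered. Of the 8 whose mean RPKM reached 1, 3 had a higher and 5 a lower mean in G85R, where 45.3% of all tested genes had a higher one. With limma 0 were called, beside 0.642% of all tested genes, and 1, Hscb, had an unadjusted p under 0.05, beside 11.0%. Both G85R values lay above wild-type for 2, Hscb and ORF28, beside 17.3% of all tested genes. They lay below for 0, beside 23.9%. Gak, the auxilin of all tissues, was listed at an RPKM of 50.5 and 48.6 (wild-type) against 47.7 and 51.3 (G85R), about the level of its neuronal relative Dnajc6. Rabj, which RefSeq names Dnajc27, had 31.8 and 33.8 (wild-type) against 37.1 and 33.2 (G85R). Sec63, which works at the translocation channel of the endoplasmic reticulum, had 22.4 and 18.5 (wild-type) against 20.9 and 18.0 (G85R). Hscb, which delivers iron-sulfur clusters in mitochondria, had 9.58 and 7.59 (wild-type) against 12.5 and 10.4 (G85R), a log2 fold change of 0.41 (adjusted p = 0.418 from limma). Wbscr18 and ORF28, which RefSeq names Dnajc30 and Dnajc28, had changes of -0.14 and 0.28.

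Dnajc8 was 1.52-fold higher in replicate 1 than in replicate 2 of wild-type and 1.53-fold higher in G85R, the widest gap between replicates among the 24 members whose mean RPKM was 10 or more, and its log2 fold change had a standard error of 0.25. Of its coding stretches of 75 bases, 65.4% occurred at another locus within 2 mismatches.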
